A study of Mus musculus with 46 samples.

Results

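The 6 miRNAs described here are mmu-miR-21a-5p, mmu-miR-21a-3p, mmu-miR-210-3p, mmu-miR-34a-5p, mmu-miR-34b-3p and mmu-miR-34c-5p. They were chosen by name, as miRNAs known from injury, from hypoxia and from the p53 response, among the 1881 mouse miRNAs of a 1-colour Agilent array. All 6 belonged to the 815 miRNAs that the software called detected on at least 5 arrays. The question was whether storage of a tissue before RNA isolation moved them, and, for miR-21a, whether the arms of the hairpin moved alike.

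Heart, liver and brain came from male C57BL6 mice of an Il1a knock-out strain, a genotype that all groups shared. Each organ was cut into 8 pieces, and 1 piece was kept for 0, 1, 3, 6, 12, 24, 48 or 96 h at 4 °C or at room temperature (RT) and then put into RNAlater. RNA integrity was given for each piece as the RIN value, which is high for intact and low for degraded RNA. Of the 45 arrays analysed, 24 belonged to RT, 8 per tissue, and 21 to 4 °C, of which 7 were from heart, 6 from liver and 8 from brain. At 4 °C the heart arrays lacked 0 h and the liver arrays lacked 6 h and 96 h. The arrays of a tissue and temperature lay on 1 slide and came from 1 animal, which per the methods gave all 3 organs of that temperature, so that, inside each tissue, temperature, animal and slide cannot be told apart. For this reason the p-values below measure the spread between pieces of single organs and not between animals.

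MiRNAs are cut from a hairpin precursor whose sides, or arms, give a 5p and a 3p strand. In most tissues 1 strand is loaded into an Argonaute protein and kept, while the other strand is present at a low level. The bases that pair with target mRNAs form the seed near the 5′ end. MiR-21 is abundant in many cell types and is known to rise in fibrosis, inflammation and tumours, and miR-210 is a target of hypoxia-inducible factors. The miR-34 genes are direct targets of p53, miR-34b and miR-34c being cut from a shared primary transcript that is best known from cells with motile cilia and from testis.

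The sequences are shown because they define which strand each probe set measured and which members share a seed. RefSeq (GRCm38.p6) held the mature sequence of 5 of the 6 members, and the sequences of miR-34b-5p and miR-34c-3p, the other arms of the miR-34b and miR-34c hairpins, were added. All are written 5′ to 3′ with the seed, bases 2 to 8, in capitals.
mmu-miR-21a-5p: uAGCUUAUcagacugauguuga
mmu-miR-21a-3p: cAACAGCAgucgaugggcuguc
mmu-miR-210-3p: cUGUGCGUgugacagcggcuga
mmu-miR-34a-5p: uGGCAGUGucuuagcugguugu
mmu-miR-34b-5p: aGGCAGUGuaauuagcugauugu
mmu-miR-34b-3p: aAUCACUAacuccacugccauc
mmu-miR-34c-3p: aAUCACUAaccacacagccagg

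The arms of miR-21a lie at chr11:86584120-86584141 for 5p and at chr11:86584082-86584103 for 3p, on the minus strand and within the span of the protein-coding gene Vmp1. MiR-210-3p lies at chr7:141221407-141221428 on the minus strand, and no other RefSeq gene overlaps its hairpin. MiR-34a-5p lies at chr4:150068473-150068494 on the plus strand, also outside any other RefSeq gene. MiR-34b-3p lies at chr9:51103574-51103595 on the minus strand, and the Mir34b and Mir34c hairpins are 451 bases apart within the spans of Btg4 and Hoatz. MiR-34a-5p and miR-34b-5p share the seed GGCAGUG with miR-449a-5p, and the 3p arms of miR-34b and miR-34c share the seed AUCACUA. The remaining 3 sequences have seeds that no other analysed miRNA with a RefSeq sequence carried. The seed of miR-34c-5p was not compared, because it is the member whose mature sequence was not held.

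Levels are given as log2 values after variance stabilizing normalization (VSN), which brings the arrays to a common scale and evens out the spread between low and high signals. A dim signal also receives a log2 value, so that detection, the call of Agilent's software that a signal stood above its background, is given beside it. MiR-21a-5p and miR-34a-5p were detected on 45 of 45 arrays and miR-210-3p on 42. MiR-34c-5p was detected on 18 arrays, miR-34b-3p on 12 and miR-21a-3p on 9. MiR-21b, miR-21c, miR-210-5p and miR-34a-3p were detected on 0 arrays, whereas miR-34b-5p was detected on 32 and miR-34c-3p on 13. The tissue labels matched their marker miRNAs, the liver miRNA miR-122-5p having its lowest liver value at 11.14 and its highest value elsewhere at 7.34. The number of miRNAs detected per array ranged from 268 to 798, the lowest number being that of the liver array of 0 h at 4 °C.

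**Figure D1:**
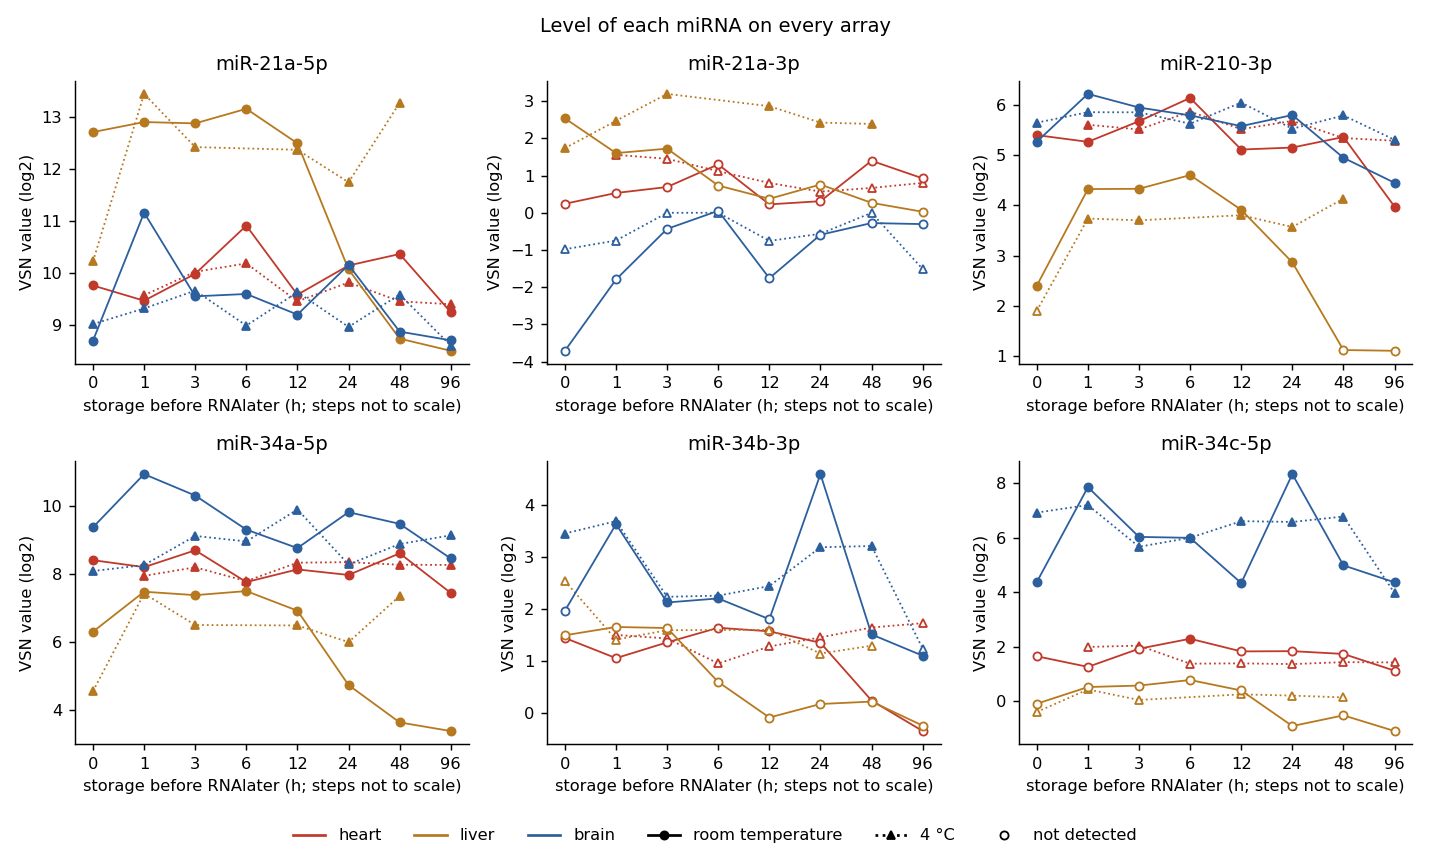
VSN log2 value of each of the 6 miRNAs (vertical axis) against the hours of storage (horizontal axis, steps not to scale) on all 45 arrays, with 1 point per array and open symbols where the miRNA was not detected. MiR-21a-5p, miR-34a-5p and miR-210-3p dropped on the liver arrays of 24 h and later at RT, miR-21a-3p was detected on liver arrays alone, and miR-34b-3p and miR-34c-5p had their highest values on brain arrays.

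MiR-21a-5p was highest in liver, miR-34a-5p and miR-210-3p were lowest there, and the miR-34b/c pair was highest in brain. To keep degradation out of this comparison, levels were compared on the 33 arrays with a RIN over 6, by limma with the slide as a random block and Benjamini-Hochberg adjustment over the 815 miRNAs. MiR-21a-5p had a mean of 12.15 ± 1.10 (SD, n = 6 arrays) in liver, 9.82 ± 0.43 (n = 13) in heart and 9.43 ± 0.65 (n = 14) in brain. Liver was higher than heart by 2.34 ± 0.34 (SE, adjusted p = 5.28e-07) and higher than brain by 2.72 ± 0.34 (adjusted p = 8.59e-09), while brain and heart did not pass the threshold (difference -0.39 ± 0.27, adjusted p = 0.201). Its order was thus liver above heart and brain, whose neighbouring levels were not told apart with VSN. Brain passed as lower than heart with 75th percentile scaling (-0.44, adjusted p = 0.0233), quantile normalization (-0.73, adjusted p = 2.04e-05) and normexp background correction (-0.79, adjusted p = 4.17e-07).

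MiR-34a-5p, the family member that is made in most tissues, had the reverse order. Its mean was 9.23 ± 0.81 in brain, 8.19 ± 0.26 in heart and 6.22 ± 0.94 in liver. Brain was higher than heart by 1.05 ± 0.27 (adjusted p = 0.000811), and liver was lower than heart with a difference of -1.97 ± 0.34 (adjusted p = 8.67e-06). Both neighbouring pairs in this order passed. The brain and heart difference did not pass after quantile normalization (0.36, adjusted p = 0.181) or over all 45 arrays (1.03, adjusted p = 0.081).

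MiR-210-3p was at 5.73 ± 0.26 in brain and 5.50 ± 0.29 in heart, which did not pass the threshold (difference 0.23 ± 0.18, adjusted p = 0.242), and at 3.19 ± 0.82 in liver. Liver lay below heart with a difference of -2.33 ± 0.22 (adjusted p = 5.37e-11) and below brain with one of -2.55 ± 0.22 (adjusted p = 1.37e-12). The sign of the brain and heart difference turned under 2 other normalizations, being -0.67 (adjusted p = 0.0161) after quantile normalization and -0.34 (adjusted p = 2.64e-06) after normexp background correction.

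The remaining members were detected in part of the tissues only, so that their differences are given as approximate lower bounds. A bound sets the mean of the brighter tissue against the mean, over the arrays of the dimmer tissue, of the lowest value among detected miRNAs or of the miRNA's own value where that was higher. The lowest detected value is not the detection limit of each miRNA. On the liver array of 0 h at 4 °C, miR-21a-3p was detected at 1.74 and miR-34b-3p was not at 2.54. The smaller folds below are therefore not strict limits. The adjusted p-values beside the bounds, here and for miR-21a-3p below, are those of limma on the measured values and do not test the bounds. For miR-34b-3p the brain mean includes arrays without detection at their measured values, so that its bounds are less strict. MiR-34c-5p was detected on 14 of 14 brain arrays, where its mean was 6.19 ± 1.29, on 2 of 13 heart arrays and on 0 of 6 liver arrays. It was at least 23.7-fold higher in brain than in liver (adjusted p = 1.18e-14). In heart its mean was 1.68 ± 0.33, mostly from signals not above background, so that no fold is given there although brain passed as higher (adjusted p = 9.79e-14). MiR-34b-3p was detected on 10 of the 14 brain arrays and on 0 heart and 0 liver arrays, and brain was at least 2.29-fold higher than heart (adjusted p = 4.95e-05) and at least 1.92-fold higher than liver (adjusted p = 0.00354). The call against liver was lost with 75th percentile scaling (adjusted p = 0.0573) and quantile normalization (adjusted p = 0.325).

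MiR-21a-3p, the strand of miR-21a that is usually the scarcer one, showed the opposite restriction. It was detected on 6 of 6 liver arrays with a RIN over 6 and on 0 of 13 heart and 0 of 14 brain arrays. Liver was at least 2.14-fold higher than heart (adjusted p = 0.000216) and at least 2.48-fold higher than brain (adjusted p = 3.94e-10), the call against heart being lost over all 45 arrays (adjusted p = 0.122). Its signal was small even in liver, with a median of 2.30 units against 3440 units for miR-21a-5p on the same arrays, each measured by its own probes. Of all miRNAs tested, 54.1% passed between liver and heart, 69% between brain and heart and 72.6% between liver and brain, against 5, 4 and 6 of the 6 members. Among the 4 was miR-21a-3p between brain and heart, where it was not detected in either tissue and no fold is given. Among the 5 was miR-34c-5p between liver and heart, detected on 2 of 13 heart and 0 of 6 liver arrays. That call was lost in 2 of 13 alternatives, and no fold is given.

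Storage at RT went with a fall of 4 of the 6 members. Over the 24 arrays of storage at RT, with a separate level for each tissue, limma gave slopes of -0.56 ± 0.16 log2 units per 24 h for miR-21a-5p (SE, adjusted p = 0.00269), -0.53 ± 0.14 for miR-34a-5p (adjusted p = 0.00119), -0.51 ± 0.11 for miR-210-3p (adjusted p = 0.000213) and -0.41 ± 0.12 for miR-34b-3p (adjusted p = 0.00261). MiR-34c-5p, at -0.31 ± 0.14 (adjusted p = 0.0517), and miR-21a-3p, at 0.03 ± 0.14 (adjusted p = 0.846), did not pass. Of all 815 miRNAs, 37.3% passed with a negative slope. The median slope of the members was -0.46, that of all miRNAs 0.07.

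The slope depended on the scale on which arrays were set against each other. With no scaling between arrays, the median slope of all miRNAs was 0.44 per 24 h, and the slopes of miR-21a-5p, miR-34a-5p, miR-210-3p and miR-34b-3p were -0.19, -0.16, -0.17 and -0.15, none of which passed, while miR-21a-3p passed with 0.31 (adjusted p = 0.0412). Relative to that median the first 3 were -0.63, -0.61 and -0.61, against -0.63, -0.60 and -0.58 with VSN. MiR-34b-3p was not detected on any heart or liver array, so that its slope rests there on signals at the background, and its call was lost with normexp (adjusted p = 0.0761) and without the 96 h arrays (adjusted p = 0.111).

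The fall of miR-21a-5p and miR-34a-5p differed among the tissues and was steepest in liver. In a fit with a slope for each tissue, liver slopes were -1.28 ± 0.21 for miR-21a-5p (adjusted p = 2.4e-05), -1.09 ± 0.19 for miR-34a-5p (adjusted p = 4.59e-05) and -0.82 ± 0.17 for miR-210-3p (adjusted p = 0.00028). These were 3 of 6 members, where 32.8% of all miRNAs passed with a negative slope in liver. In heart 0 of 6 members passed by limma (2 at an unadjusted p below 0.05), against 38.4% of all miRNAs in either direction, and their slopes ranged from -0.47 to 0.13. In brain 0 of 6 members passed as well (1 at an unadjusted p below 0.05), against 19.6% of all miRNAs, with slopes from -0.39 to 0.40.

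The difference among the 3 tissue slopes itself passed for miR-21a-5p (moderated F = 8.93, adjusted p = 0.0116) and for miR-34a-5p (F = 6.78, adjusted p = 0.0266), against 24.2% of all miRNAs. It did not pass for miR-210-3p (F = 2.47, adjusted p = 0.242). For miR-34a-5p it was also past the threshold neither without scaling (adjusted p = 0.105) nor with normexp background correction (adjusted p = 0.125) nor with a logarithmic time scale (adjusted p = 0.0507).

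**Figure D2:**
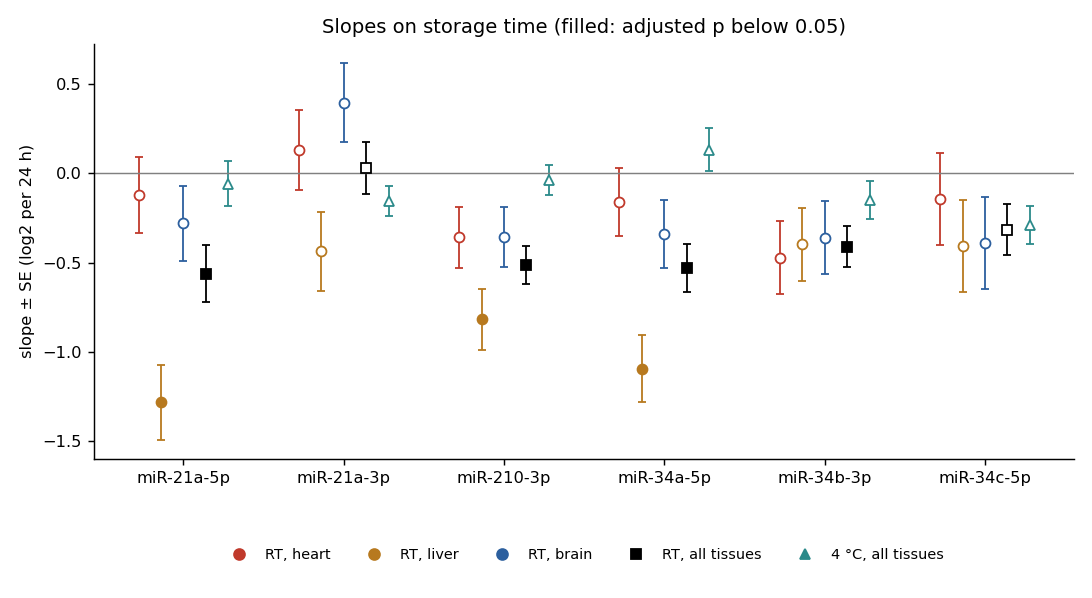
Slope of each miRNA on storage time, in log2 units per 24 h with its SE (vertical axis), for the RT arrays of each tissue, all 24 RT arrays and all 21 arrays of 4 °C, with filled symbols for an adjusted p below 0.05. The slopes of miR-21a-5p, miR-34a-5p and miR-210-3p at RT were lowest in liver, between -1.28 and -0.82, and all 6 slopes at 4 °C are drawn as open symbols.

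In liver at RT the fall was not gradual. MiR-21a-5p was at 12.71, 12.91, 12.88, 13.16 and 12.50 on the arrays of 0, 1, 3, 6 and 12 h, then at 10.07, 8.73 and 8.50 at 24, 48 and 96 h. The arrays to 12 h had a mean of 12.83 ± 0.25 (SD, n = 5) and the later arrays one of 9.10 ± 0.85 (n = 3), a 13.3-fold difference. The groups did not overlap. The background-subtracted signal, before any scaling, first rose, being 3487, 5458, 5989, 11995 and 8864 units at 0, 1, 3, 6 and 12 h. At 24, 48 and 96 h it was 2013, 680 and 916 units.

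MiR-34a-5p followed the same course in liver. It was at 6.31, 7.49, 7.39, 7.51 and 6.93 on the arrays from 0 to 12 h and at 4.74, 3.64 and 3.39 from 24 to 96 h. Its mean dropped from 7.13 ± 0.51 to 3.92 ± 0.72, a 9.20-fold difference, and the earlier and later arrays did not overlap.

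MiR-210-3p was at 2.41, 4.33, 4.33, 4.60 and 3.91 in the first 12 h, 2.87 after 24 h, and 1.12 and 1.11 after 48 and 96 h, where it was not detected. The array of 0 h lay below that of 24 h, so that the groups overlapped.

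Of the 6 members, 3 had all arrays from 24 h below all arrays to 12 h, the third being miR-34c-5p, which was not detected on any liver array. The same held for 29.4% of all 815 miRNAs, so that the share among the members is to be read against this value. The median change of all miRNAs between these arrays was 0.39 on the log2 scale. The division at 12 h was chosen after the values were seen and was not tested. Without scaling, the differences were -2.60 for miR-21a-5p, -2.12 for miR-34a-5p and -1.30 for miR-210-3p.

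The hepatocyte miRNA miR-122-5p dropped from 15.09 to 11.89 between the same arrays, a difference of -3.20. With hours at RT, 32.8% of all miRNAs fell in liver. Of 6 miRNAs known from blood cells and leukocytes, 5 fell there and 1, miR-486a-5p, rose. Their summed signal was between 436 and 2985 units on the 5 arrays to 12 h and between 184 and 648 units on the 3 later arrays, miR-223-3p being counted here and among the injury miRNAs below. The number of detected miRNAs rose from 310 at 0 h to 726 at 96 h. The part of these changes in the fall of the members was not tested, and in whole tissue fewer cells of a type and less of a miRNA per cell cannot be told apart.

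Liver arrays of equal RIN held unlike levels of these miRNAs. The RIN value at RT started from 7.1, had dropped to 4.1 by 3 h and to 2.8 by 6 h, and was 2.7 after both 12 and 24 h. MiR-21a-5p was at 12.50 and 10.07 on the 2 arrays with a RIN of 2.7. The liver array of 48 h at 4 °C had a RIN of 3.4, and on it miR-21a-5p was at 13.28, miR-34a-5p at 7.36 and miR-210-3p at 4.14. The first 2 were the second highest values of that slide and the last was its highest.

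**Figure D3:**
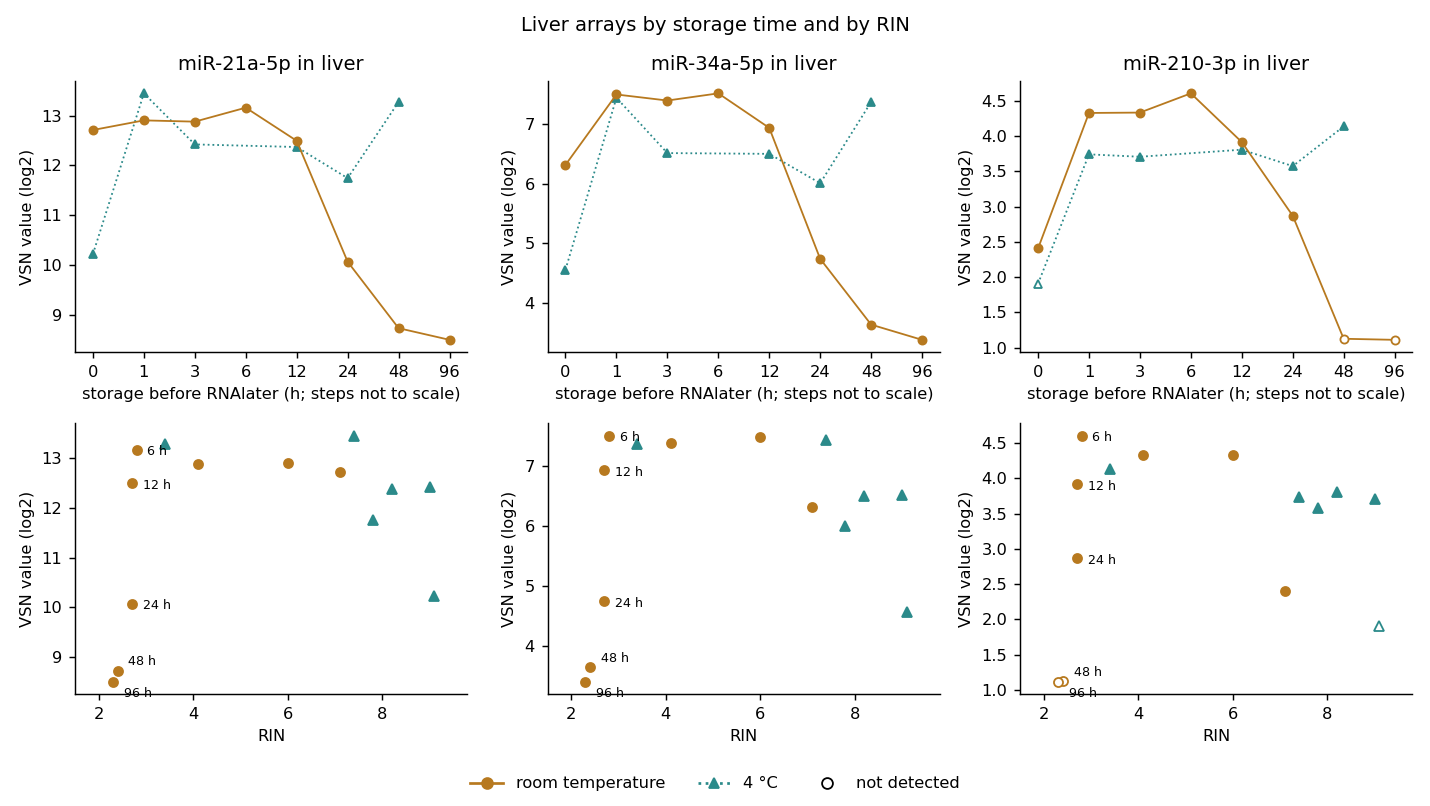
VSN log2 value of miR-21a-5p, miR-34a-5p and miR-210-3p on the 14 liver arrays against hours of storage (upper panels, steps not to scale) and against RIN (lower panels, RT arrays from 6 h labelled with their hours), with open symbols where not detected. Arrays with RIN values between 2.3 and 2.8 spread over most of the range of levels, the 6 h and 12 h arrays lying high and the 48 h and 96 h arrays low.

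A comparison of the 8 liver arrays with a RIN of 6 or lower with the 6 over 6 gave 1 of 6 members by the exact 2-sided Wilcoxon-Mann-Whitney test, against 2.94% of all miRNAs that passed as lower. This was miR-21a-3p, at 0.99 ± 0.83 (SD) on the low and 2.54 ± 0.49 on the high RIN arrays (adjusted p = 0.0252). It was detected on 3 of the 8 and on 6 of the 6 arrays, and 7 of the 8 low RIN arrays lay below all high RIN arrays. MiR-21a-5p was at 11.50 ± 2.05 and 12.15 ± 1.10 (adjusted p = 1), miR-34a-5p at 6.06 ± 1.82 and 6.22 ± 0.94 (adjusted p = 0.829) and miR-210-3p at 3.30 ± 1.44 and 3.19 ± 0.82 (adjusted p = 0.522). The call for miR-21a-3p was lost without the liver array of 1 h at 4 °C (adjusted p = 0.0517) or that of 0 h at RT (adjusted p = 0.0507), and by limma with the slide as a block (difference -0.97, adjusted p = 0.361). In that fit 0 of all 815 miRNAs passed, 173 having an unadjusted p below 0.05, and 7 of the 8 low RIN arrays were RT arrays.

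Over all 45 arrays, with a separate level for each slide, 1 of 6 members changed with RIN, where 26.1% of all miRNAs passed with a positive slope. MiR-34b-3p rose by 0.27 ± 0.06 log2 units per RIN unit (SE, adjusted p = 0.000111). Without scaling it did not pass (0.14, adjusted p = 0.0836), and miR-21a-3p passed in the other direction (-0.17, adjusted p = 0.0228). The slopes of the other 5 lay between 0.01 and 0.13 with adjusted p-values from 0.0947 to 0.924. The count of members was 4 after scaling to the 75th percentile or quantile normalization, 5 with normexp and 3 with the tissue in place of the slide as the block, all with positive slopes. Of all 815 miRNAs, 608, 659, 637 and 661 passed in these fits, in that order and in either direction. The counts of members are to be read against these numbers. With the 33 arrays over a RIN of 6 the count of members was 0, where 29 of all 815 miRNAs passed.

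By tissue, miR-34b-3p passed in heart (0.26 ± 0.10, adjusted p = 0.0232, 1 of 6 members, where 13.6% of all miRNAs passed upward), in liver (0.25 ± 0.10, adjusted p = 0.029) and in brain (0.32 ± 0.13, adjusted p = 0.047, 1 of 6 members against 11.9%). Heart and liver had 0 arrays on which it was detected. In liver miR-21a-3p passed too (0.24 ± 0.10, adjusted p = 0.0497), which made 2 of 6 members against 11.5% of all miRNAs. The RIN slope differed among the tissues for 0 of 6 members by limma, against 2.09% of all miRNAs. Before adjustment 1 member, miR-21a-3p, was past the threshold.

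At 4 °C, 0 of 6 members changed with hours of storage over the 21 arrays by limma, where 11.8% of all miRNAs passed. In liver these arrays ended at 48 h and did not reach 96 h. The slopes per 24 h were -0.06 ± 0.13 for miR-21a-5p, -0.04 ± 0.09 for miR-210-3p, 0.13 ± 0.12 for miR-34a-5p and -0.15 ± 0.08 for miR-21a-3p. MiR-34c-5p had the slope that came closest to the threshold (-0.29 ± 0.11, unadjusted p = 0.0139, adjusted p = 0.0763), the only member with an unadjusted p below 0.05. Without the heart array of 96 h it passed, at -0.41 (adjusted p = 0.037).

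The slope at RT was lower than that at 4 °C for 3 of 6 members, where this held for 28% of all miRNAs. In liver the slopes cover unlike times, to 96 h at RT and to 48 h at 4 °C. The difference was -0.66 ± 0.19 per 24 h for miR-34a-5p (adjusted p = 0.00569), -0.47 ± 0.14 for miR-210-3p (adjusted p = 0.00785) and -0.50 ± 0.22 for miR-21a-5p (adjusted p = 0.0476). MiR-34b-3p (-0.26 ± 0.16, adjusted p = 0.163), miR-34c-5p (-0.03 ± 0.19, adjusted p = 0.914) and miR-21a-3p (0.18 ± 0.18, adjusted p = 0.393) did not pass. Without scaling between arrays none of these 3 passed (miR-34a-5p -0.34, adjusted p = 0.147, miR-210-3p -0.19, adjusted p = 0.394, miR-21a-5p -0.17, adjusted p = 0.5), and miR-21a-3p passed with the higher slope at RT (0.48, adjusted p = 0.0171), the median of all miRNAs being 0.38. The call for miR-21a-5p was also lost without the liver array of 0 h at 4 °C (-0.45, adjusted p = 0.0572), without the arrays of 96 h (-0.96, adjusted p = 0.0572) and with no filter on detection (adjusted p = 0.0613). On that liver array miR-21a-5p was at 10.22, while the other 5 liver arrays of 4 °C lay between 11.75 and 13.45.

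The measured difference between the arms of miR-21a changed with hours at RT, but miR-21a-3p was detected on 3 of the 24 arrays of that comparison, all of liver. The slopes on hours at RT were -0.56 for 5p and 0.03 for the 3p signal, and the difference of the arms, 5p minus 3p, fell by 0.59 ± 0.16 log2 units per 24 h (SE, 24 arrays). A 2-sided permutation test of the hours within slides (100000 resamples) gave p = 0.00018, adjusted p = 0.00054 over the 3 tests of this kind. On RIN the difference had a slope of 0.12 ± 0.09 per unit (permutation p = 0.252, adjusted p = 0.324), and on hours at 4 °C one of 0.10 ± 0.12 per 24 h (permutation p = 0.324, adjusted p = 0.324).

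These slopes set a bright miRNA against one that was mostly below detection. In heart and brain miR-21a-3p was detected on 0 of 31 arrays, and in brain its signal lay between -1.03 and 0.51 units, so that a movement of the 3p arm in those tissues was not detectable and the difference there is that of 5p from a background signal. In liver at RT miR-21a-3p was at 2.54, 1.61 and 1.72 at 0, 1 and 3 h and was not detected from 6 h on, where its values lay between 0.03 and 0.76. MiR-21a-5p, in contrast, was detected on all 8 liver arrays of RT. It was at its highest value there, 13.16, at 6 h and at 12.50 at 12 h.

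In liver at RT alone the slope of the difference was -0.85 ± 0.31 per 24 h (exact permutation p = 0.013, n = 8), from -1.28 for 5p and -0.44 for 3p. There too 3p was detected on 3 of the 8 arrays. On the 9 arrays where both arms were detected, all of liver, the difference had a slope of -0.34 ± 0.13 per RIN unit (permutation p = 0.0156, not adjusted), opposite in sign to the slope over all arrays. These arrays were picked by the detection of 3p itself, which left out the RT arrays with a RIN from 2.3 to 2.8. That test therefore cannot decide how the arms moved with RIN. At 4 °C both arms were detected on 6 of 6 liver arrays, where 5p ranged from 10.22 to 13.45 and 3p from 1.74 to 3.20.

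**Figure D4:**
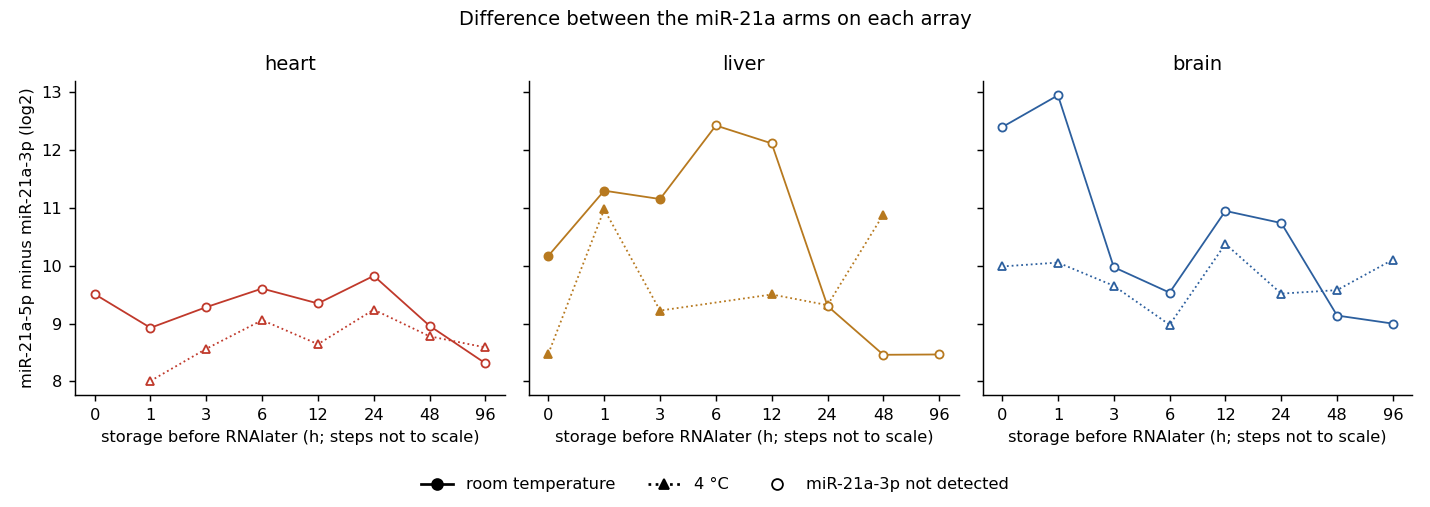
Difference between miR-21a-5p and miR-21a-3p, in log2 units (vertical axis), against hours of storage (horizontal axis, steps not to scale) on the heart, liver and brain arrays, with open symbols where miR-21a-3p was not detected. In liver at RT the difference was highest at 6 h and 12 h and lower from 24 h on, and 9 liver arrays alone have filled symbols.

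In brain the miR-34b/c arms differed widely between arrays. With 1 piece per hour at each temperature, a difference between pieces cannot be told apart from a change with hours. At RT miR-34c-5p was at 4.37, 7.85, 6.03, 5.99, 4.34, 8.33, 4.98 and 4.36 at 0, 1, 3, 6, 12, 24, 48 and 96 h. At 4 °C its values were 6.92, 7.20, 5.67, 6.00, 6.61, 6.58, 6.78 and 3.97 at the same hours. The highest and the lowest of the 16 brain arrays differed by 4.37, while the slope at RT in brain, -0.39 ± 0.26 per 24 h (limma, adjusted p = 0.214), did not pass.

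The other arms of this pair of hairpins had the same peaks. On the RT arrays of 1 h and 24 h, miR-34b-5p was at 8.55 and 9.00, miR-34b-3p at 3.63 and 4.59, and miR-34c-3p at 3.61 and 4.51, in each case the highest values of that slide. MiR-21a-5p also had its 2 highest values of that slide there, at 11.16 and 10.15. The array of 1 h further held the highest value of that slide for miR-34a-5p, 10.95, and for miR-210-3p, 6.22. Over the 16 brain arrays, centred on their slide, Pearson's r with miR-34c-5p was 1.00 for miR-34b-5p, 0.93 for miR-34b-3p and 0.95 for miR-34c-3p. It was 0.79 for miR-21a-5p, 0.68 for miR-210-3p and 0.38 for miR-34a-5p. These values describe pieces of 2 brains and share the arrays, so that no test was made. Whether the probes of miR-34b-5p and miR-34c-5p also read each other's target was not tested. Which region of the brain a piece held is not given in the sources used here.

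**Figure D5:**
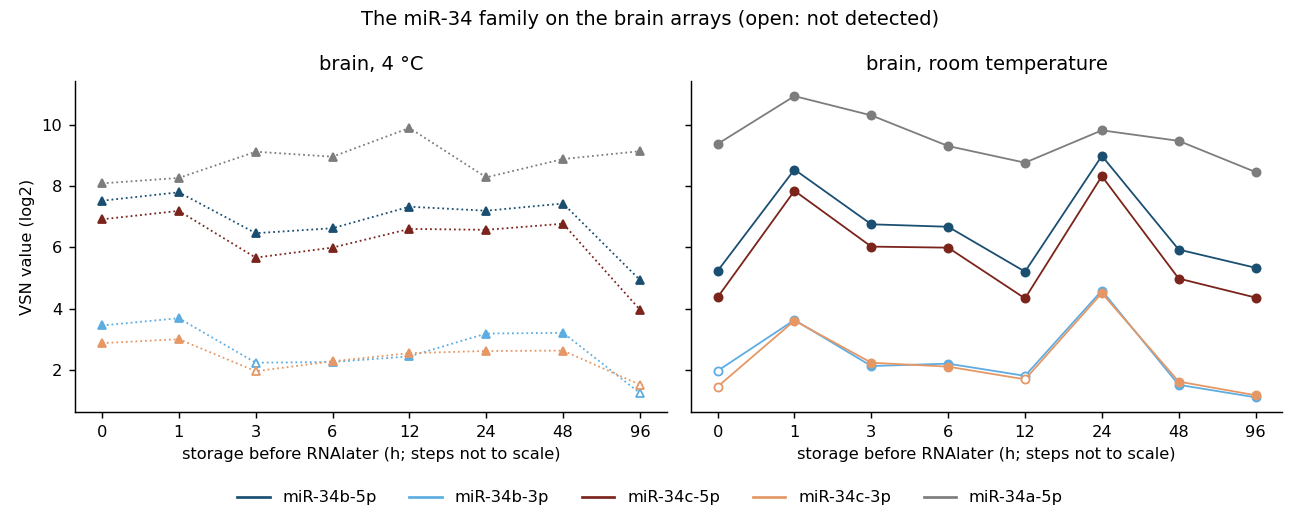
VSN log2 values (vertical axis) of 5 miRNAs of the miR-34 family on the 8 brain arrays of 4 °C and the 8 of RT against hours of storage (horizontal axis, steps not to scale), with open symbols where not detected. The 4 arms of miR-34b and miR-34c rise together on the RT arrays of 1 h and 24 h. They are low on those of 0 h, 12 h, 48 h and 96 h. MiR-34a-5p also has its highest RT value at 1 h.

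Among the 814 other analysed miRNAs, those whose values followed a member most closely were named by Pearson's r over the 45 arrays, each centred on its slide. For miR-21a-5p they were miR-15a-5p (r = 0.98), miR-338-3p (0.98) and miR-19a-3p (0.97), and for miR-210-3p miR-152-3p (0.95), miR-29a-3p (0.94) and miR-29c-3p (0.93). For miR-34a-5p they were miR-101c (0.92), miR-126a-5p (0.92) and miR-151-5p (0.92). MiR-34b-3p was followed by miR-211-5p (0.82), miR-204-5p (0.81) and let-7e-3p (0.77), and miR-34c-5p by miR-34b-5p (0.93), miR-204-5p (0.81) and miR-34b-3p (0.77).

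For miR-21a-3p the highest values were 0.48 for miR-3070-3p, 0.47 for miR-219a-5p and 0.46 for miR-551b-5p, lower than for any other member, its own signal being near the background on most arrays. All of these r values share arrays, slides and scaling and are given as a description.

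Other miRNAs of the same pathways were read beside the members. Of 14 further miRNAs known from injury and inflammation, 12 were analysed and 11 fell with hours at RT, with a median slope of -0.57 per 24 h. Of 15 further hypoxia miRNAs 14 were analysed and 14 fell (median -0.55), and of 12 further p53 miRNAs 9 were analysed and 8 fell (median -0.51), while all 815 miRNAs had a median of 0.07 and 37.3% of them fell. The fall was not particular to these lists. Of the 6 blood-cell markers 5 fell (median -0.58), as did miR-122-5p (-0.45), 1 of 2 heart markers and 1 of 2 brain markers. The 650 miRNAs detected on 10 or more arrays had a median of -0.11. At 4 °C 0 miRNAs of these lists passed by limma, and 2, miR-34b-5p and miR-181b-5p, the latter named after its value was seen, had an unadjusted p below 0.05. With RIN, 6 of the 12, 7 of the 14 and 3 of the 9 rose and 0 fell, against 26.1% of all miRNAs that rose. The lists share miR-107-3p, and the other arms of the miR-34 hairpins count among the p53 miRNAs. All counts of these lists are with VSN and were not made under other scalings. Without scaling, the members that fell at RT with VSN did not pass.

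Named by the size of their RIN slope, the injury and inflammation list was led by miR-212-3p, made with miR-132 in neurons (0.33 ± 0.08 per RIN unit, adjusted p = 0.000193), and by the myeloid miR-223-3p (0.19 ± 0.08, adjusted p = 0.0378) and miR-146a-5p, a target of NF-kB (0.19 ± 0.09, adjusted p = 0.0497). In the hypoxia list these were miR-103-3p (0.25 ± 0.08, adjusted p = 0.00732), miR-26a-5p (0.20 ± 0.07, adjusted p = 0.00768) and miR-181a-5p (0.19 ± 0.05, adjusted p = 0.000334). In the p53 list they were miR-145a-5p (0.20 ± 0.05, adjusted p = 0.000698), miR-194-5p (0.19 ± 0.07, adjusted p = 0.0161) and miR-107-3p (0.19 ± 0.08, adjusted p = 0.0278). Each of these 9 also had a negative slope on hours at RT, from -0.76 for miR-103-3p to -0.30 for miR-181a-5p.

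The probes of each member gave similar values for the bright miRNAs. In liver at RT, after scaling to the 75th percentile, the arrays from 24 h minus those to 12 h differed by -3.19 and -3.24 for the 2 probes of miR-21a-5p, by -2.68 and -2.74 for the 2 of miR-34a-5p and by -1.99 and -1.73 for the 2 of miR-210-3p. The 4 probes of miR-21a-3p, in contrast, ranged from -1.10 to 0.33, with median signals of at most 1.26 units.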

How the data were processed

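The authors deposited the Agilent Feature Extraction (version 10.10.1.1) output of 46 arrays with background-subtracted spot and gene intensities, each of 1881 miRNAs being read by 30 spots, and a table of VSN-normalized log2 values. RNA was isolated with the miRNeasy kit without DNase digestion. As in the study, 1 heart array (0 h, 4 °C) was left out. VSN was refitted to the deposited intensities of 45 arrays (over all 46 it differed from the deposited log2 table by at most 0.00166). The 815 miRNAs detected on 5 or more arrays were tested with limma 3.58.1 (R 4.3.3) with slide or tissue as a block, or the exact Wilcoxon-Mann-Whitney test, with Benjamini-Hochberg adjustment and a threshold of 0.05. The arms were compared with permutation tests (numpy 2.4.6). The limma fits and the Wilcoxon-Mann-Whitney test were run on simulated data with independent noise. Those data held no shared array effects and no shifts from scaling, so that these were not covered. Precision is limited by the number of arrays. Labels give 12 h where the methods give 14 h; labels were used.

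Alternatives were the deposited table, 75th percentile scaling over the 180 miRNAs detected on all arrays, no scaling, quantile normalization, normexp (offset 50, on spot medians, the spot means not being used here) with quantile normalization, other detection filters, Bonferroni adjustment, other blocks and time scales, and arrays left out. Per the methods the organs of a temperature came from 1 animal, which was added as a block in the comparison of tissues. The members and lists were chosen with earlier results of these data known. Beside the members, miRNAs were named as the other arms and miR-21b and miR-21c, up to 3 of each list that passed with the largest RIN slopes, the 3 most alike to each member, and markers of liver (miR-122-5p), heart (miR-1a-3p, miR-133a-3p), brain (miR-124-3p, miR-9-5p) and blood cells (miR-451a, miR-144-3p, miR-486a-5p, miR-142a-3p, miR-150-5p, miR-223-3p).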

Additional observations from a re-analysis of the deposited data

Results flagged for a closer look

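Among 36 sets of arrays (6 miRNAs on 6 slides), Dixon's test marked 3 values as far from the others of their slide, where chance marks about 1 in 20. On the liver slide of 4 °C the array of 0 h gave the lowest miR-210-3p value, 1.91 against 3.57 for the next, a gap of 0.747 of the range, and the highest miR-34b-3p value, 2.54 against 1.60, a gap of 0.673; neither was detected there. This array had a RIN of 9.1 and the fewest detected miRNAs, 268. On the brain slide of 4 °C the array of 96 h gave the lowest miR-34c-5p value, 3.97 against 5.67, a gap of 0.527.

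The RT slopes differed among heart, liver and brain for miR-21a-5p (moderated F = 8.93) and miR-34a-5p (F = 6.78), and RT and 4 °C slopes differed for miR-210-3p (-0.47 per 24 h), miR-21a-5p (-0.50) and miR-34a-5p (-0.66), as given above. Each temperature of a tissue is 1 animal on 1 slide, so that a difference between temperatures cannot be told apart from one between animals or slides.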

How the results depend on the processing

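Counts of called members kept within 1.5 times their value under all alternatives run except the following. For RIN (1 of 6) the count was 4 with 75th percentile scaling, quantile normalization or no block, 5 with normexp, 3 with tissue as the block, 0 with RIN over 6 only, and 1 to 2 when single arrays were left out, miR-210-3p passing without the liver array of 0 h at 4 °C (adjusted p = 0.0261), 48 h at 4 °C (0.0199), 0 h at RT (0.0378) or 6 h at RT (0.0477). Without scaling the RIN count stayed at 1, but as miR-21a-3p (-0.17 per RIN unit) in place of miR-34b-3p. Of all 815 miRNAs, 565 passed in the main RIN fit, 491 without scaling, 603 with no block and 29 over a RIN of 6 only. For hours at RT (4 of 6) the count was 1 without scaling, again miR-21a-3p, 0 by Bonferroni and 4 to 5 with single arrays left out, miR-34c-5p passing without the heart array of 1 h (0.0439) or the brain arrays of 0 h (0.0195), 12 h (0.0306) or 24 h (0.0195). For hours at 4 °C (0 of 6) it was 1 with quantile normalization and 0 to 1 with single arrays left out. RT against 4 °C (3 of 6) gave 1 without scaling, which was miR-21a-3p in the other direction, and 0 by Bonferroni. The tissue difference of RT slopes (2 of 6) gave 1 without scaling or with normexp and 0 by Bonferroni, and that of RIN slopes (0 of 6) gave 1 with 75th percentile scaling, quantile normalization or normexp. Low against high RIN in liver (1 of 6) gave 2 with 75th percentile scaling or normexp, 0 without scaling, by Bonferroni, with the slide as a block or when detection on 10 arrays was required, and 0 to 1 with single arrays left out. MiR-210-3p in brain minus heart turned to -0.67 (quantile) and -0.34 (normexp). The difference of the miR-21a arms on RIN (0.12) was 0.18 with normexp, 0.15 in heart alone and 0.43 in brain alone, and it reversed to -0.00614 with tissue as the block, -0.53 over a RIN of 6, -0.0208 without 96 h, -0.34 where both arms were detected and -0.0775 in liver alone (single arrays left out, 0.07 to 0.20). On hours at RT (-0.59) it was -0.34 over a RIN of 6, -0.68 in brain alone, -0.25 in heart alone and 6.49 on the 3 arrays with both arms detected, which span 3 h (single arrays left out, -0.69 to -0.54). On hours at 4 °C (0.10) it was -0.0527 with normexp, 0.59 in liver, 0.02 in heart and 0.05 in brain alone (single arrays left out, 0.03 to 0.16). The cause of these changes was not tested. Splits by tissue and fits without the liver array of 0 h at 4 °C were added after the data were seen. With the animal that gave the organs of a temperature as a block, also added later, 5, 4 and 6 members passed between the tissues, the same counts as without that block, and no member's call changed. No other paired analysis was possible because each temperature is 1 animal. Signals near background limit miR-21a-3p, miR-34b-3p and, outside brain, miR-34c-5p.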

Other observations

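On the heart array of 0 h at 4 °C that was set aside, 215 miRNAs were detected. MiR-21a-5p was at 6.50 and miR-34a-5p at 4.57, below the range of the other arrays of that slide in a VSN fit of all 46 arrays (9.43 to 10.21 and 7.83 to 8.39). MiR-210-3p, at 1.69 against 5.33 to 5.90, was not detected on it.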
